A study of Mus musculus with 2 samples.

Results

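Among the mouse embryonic stem cells (mESCs) of this study, a small group of cells carried mRNA of *Derl3* and *Nupr1*, a pair of genes of the endoplasmic reticulum (ER) stress response. These cells were selected on measured counts: a member was a cell with at least 4 unique molecular identifiers (UMIs, each counting 1 captured mRNA molecule) summed over *Derl3* and *Nupr1*, among barcodes with at least 1000 detected genes, at most 5% mitochondrial UMIs and at least 10000 UMIs. The rule found 133 members among 5036 cells, 73 of 2193 in the wild-type (WT) library and 60 of 2843 in the other. Members were compared within each library with the cells that held 0 UMIs of both genes (1477 and 1844 cells, called 0-UMI cells).

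The study made 1 single-cell RNA-seq library from parental E14 mESCs (WT, genotype wild-type) and 1 from E14 cells in which *Smad1* and *Smad5*, the transcription factors downstream of BMP receptors, had been targeted with CRISPR-Cas9 (S1/5 dKO). Both were feeder-free, grown on gelatin with 15% FBS and 1000 U/ml LIF, and carried no other agent or allele named in the labels. Libraries were made with the Chromium 3′ v3 kit after trypsin digestion, which captures mRNA near its 3′ end, and no replicate library was made. The labels do not say which S1/5 dKO line, or how many clones, gave the cells. *Smad1* stood at 13.4 CPM (UMIs scaled to the same total in every group of cells) in WT cells and at 9.18 CPM in the second library, and *Smad5* at 6.07 and 9.11 CPM. A small edit need not lower an mRNA, so these levels do not check the genotype. The *Id* and inhibitory *Smad* genes of a BMP target list summed to 566 CPM in WT 0-UMI cells and 312 CPM in those of the second library, which is the direction of the label. *Smad5* mRNA was not lower, and the second library is called by its label, as the dKO-labelled library. The libraries shared 0 cell barcodes.

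The median was 38987 UMIs per WT cell and 34856 per cell of the dKO-labelled library. Members were deeper than 0-UMI cells, with medians of 44173 against 37246 UMIs in WT and 45324.5 against 33759 in the dKO-labelled library. Cells that held more than 2 times their library's median UMIs, among which doublets could lie, made up 9.59% and 15% of the members and 3.39% and 2.603% of the 0-UMI cells. The mitochondrial share was alike, with medians of 1.76% and 1.70% in members and 1.72% and 1.86% in 0-UMI cells. With 1 library per genotype and cells that are not replicates, no p-value is given, and every interval is a 95% interval for counting error only.

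Proteins that enter the ER are folded by chaperones, and misfolded ones are pulled back to the cytosol and degraded. When folding falls behind, the unfolded protein response (UPR) is switched on through the sensors IRE1, ATF6 and PERK. ATF6 and the IRE1 product XBP1 raise chaperone and degradation genes, while PERK phosphorylates eIF2α and lets ATF4 be translated. ATF4 then drives the integrated stress response, which amino acid shortage or heme loss can also start without the ER, and whose targets include amino acid enzymes, tRNA synthetases and the factor DDIT3 (CHOP). Derlin-3, the product of *Derl3*, is a membrane protein of ER-associated degradation, and *Nupr1* encodes a small nuclear stress protein.

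The promoters of a few of these genes are shown because they carry different motif letters: the pair of the rule, the ER genes *Hspa5* and *Creld2*, and *Trib3*, *Asns* and *Herpud1*, described further on. Windows of RefSeq (build GRCm38.p6) from 250 bases before to 50 after each gene start were searched on both strands for 4 motifs. These were the ER stress element ERSE (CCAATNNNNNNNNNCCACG), ERSE-II (ATTGGNCCACG), the XBP1 element UPRE (TGACGTGG) and the ATF4 element CARE (TGATGNAA). ERSE and ERSE-II share the letters CCACG and the CCAAT box on one of the strands. In the sequences, read 5′ to 3′ along the gene, capitals mark an ERSE in *Derl3*, *Hspa5* and *Creld2*, a CARE in *Nupr1*, *Trib3* and *Asns*, and a CARE followed by an ERSE-II in *Herpud1*. The ERSE of *Derl3* and *Creld2* and the CARE of *Nupr1*, *Trib3* and *Herpud1* lie on the opposite strand, so that their capitals read as the reverse complement.
Derl3, chr10:75893148-75893447, + strand: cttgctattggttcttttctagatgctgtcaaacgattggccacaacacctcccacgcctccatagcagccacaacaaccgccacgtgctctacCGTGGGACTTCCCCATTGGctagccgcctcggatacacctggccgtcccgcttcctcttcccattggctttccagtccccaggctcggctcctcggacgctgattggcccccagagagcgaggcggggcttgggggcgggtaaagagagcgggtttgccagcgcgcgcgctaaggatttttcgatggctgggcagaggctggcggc
Hspa5, chr2:34771840-34772139, + strand: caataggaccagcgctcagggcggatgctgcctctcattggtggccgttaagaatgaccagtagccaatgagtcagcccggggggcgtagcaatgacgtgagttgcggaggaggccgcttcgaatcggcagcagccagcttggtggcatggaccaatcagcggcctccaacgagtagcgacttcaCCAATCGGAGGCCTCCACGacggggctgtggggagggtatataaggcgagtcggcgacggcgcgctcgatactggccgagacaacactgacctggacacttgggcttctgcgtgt
Creld2, chr15:88819396-88819695, + strand: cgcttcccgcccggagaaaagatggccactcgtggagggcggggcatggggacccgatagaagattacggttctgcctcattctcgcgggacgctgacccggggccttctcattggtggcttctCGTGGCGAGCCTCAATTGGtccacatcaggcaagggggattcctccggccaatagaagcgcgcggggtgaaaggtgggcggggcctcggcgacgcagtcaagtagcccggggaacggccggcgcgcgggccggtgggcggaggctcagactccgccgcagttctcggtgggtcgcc
Nupr1, chr7:126625421-126625720, - strand: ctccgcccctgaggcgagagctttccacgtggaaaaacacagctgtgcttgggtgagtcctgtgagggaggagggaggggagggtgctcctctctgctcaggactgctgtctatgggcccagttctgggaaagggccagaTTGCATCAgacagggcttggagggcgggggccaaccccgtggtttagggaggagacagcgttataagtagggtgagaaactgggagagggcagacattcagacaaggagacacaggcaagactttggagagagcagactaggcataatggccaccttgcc
Trib3, chr2:152344011-152344310, - strand: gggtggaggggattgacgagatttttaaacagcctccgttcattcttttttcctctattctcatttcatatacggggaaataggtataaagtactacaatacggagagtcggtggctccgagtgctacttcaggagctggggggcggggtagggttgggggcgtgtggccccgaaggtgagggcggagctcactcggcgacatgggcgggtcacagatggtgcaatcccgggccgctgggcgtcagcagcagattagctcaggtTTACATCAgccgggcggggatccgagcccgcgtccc
Asns, chr6:7693160-7693459, - strand: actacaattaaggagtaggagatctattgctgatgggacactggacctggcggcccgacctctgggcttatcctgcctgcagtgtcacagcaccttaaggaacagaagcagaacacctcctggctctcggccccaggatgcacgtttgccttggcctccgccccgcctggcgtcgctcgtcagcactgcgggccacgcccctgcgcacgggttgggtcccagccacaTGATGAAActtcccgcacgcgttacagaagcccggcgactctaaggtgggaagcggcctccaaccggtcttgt
Herpud1, chr8:94386179-94386478, + strand: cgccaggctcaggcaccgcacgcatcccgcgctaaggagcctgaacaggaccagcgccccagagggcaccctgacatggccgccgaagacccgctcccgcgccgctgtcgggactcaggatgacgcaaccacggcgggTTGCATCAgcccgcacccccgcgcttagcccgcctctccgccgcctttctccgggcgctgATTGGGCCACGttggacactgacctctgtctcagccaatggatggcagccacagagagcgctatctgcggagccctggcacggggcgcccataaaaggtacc

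Of the 32851 windows in the table, 0.119% held an ERSE, 0.0365% an ERSE-II, 0.676% a UPRE and 3.97% a CARE. Of the 22 genes of an ER chaperone and folding enzyme list, 18 had a window and 8 of those held an ERSE or ERSE-II, against 0 of 14 with a window from an amino acid list and 0 of 16 from a list of integrated stress response regulators. CARE letters stood in 2, 4 and 6 windows of the same lists. *Manf* had no entry in the table, and the window of *Sdf2l1* held none of the 4 motifs. Nor did those of *Xbp1*, *Ddit3*, *Atf4*, *Atf5*, *Psat1*, *Phgdh*, *Shmt2*, *Mthfd2*, *Sars* and *Aldh18a1*, described further on. Of the 71 genes at least 1.5-fold higher in members of both libraries, 56 had a window. An ERSE or ERSE-II stood in 5 of these and a CARE in 7, so the sequences shown are not typical of the higher genes. A match of letters is a description and does not show binding.

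The values that chose the members were as follows. Members held a median of 5 summed UMIs in WT (4 to 24) and 6 in the dKO-labelled library (4 to 23), or medians of 134 and 130 CPM per cell. Both genes were seen in 46 WT members and 35 dKO-labelled members, *Nupr1* alone in 24 and 25, and *Derl3* alone in 3 and 0. *Nupr1* gave 387 of 527 WT UMIs and 353 of 443 in the other library, and the 5 members with most UMIs held 19.4% and 20.8% of them. Just inside the threshold, the 29 WT and 17 dKO-labelled cells with 4 UMIs had medians of 102 and 82.0 summed CPM, and just outside, the 39 and 54 cells with 3 UMIs had 68.3 and 69.1.

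Free RNA was read from barcodes with 10 to 100 UMIs, which held *Derl3* at 4.53 CPM (WT) and 3.58 CPM (dKO-labelled), and *Nupr1* at 6.80 and 16.9 CPM. All kept cells held *Derl3* at 5.67 and 5.45 CPM and *Nupr1* at 8.91 and 10.2 CPM. Free RNA was thus near the average cell, or above it for *Nupr1* in the dKO-labelled library, and well under the members' medians, and its part in single members near the threshold was not tested. After each cell was thinned to 10000 UMIs, the variance of the summed UMIs over cells was 1.51 and 1.68 times their mean. No barcode left out by the UMI or mitochondrial limit reached 4 summed UMIs, of 50 in WT and 75 in the other library.

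The 4 other markers, which the rule did not use, were higher in members of both libraries. *Hspa5* (chr2:34771970-34777547, + strand) encodes BiP, the main ER chaperone and the protein that holds the UPR sensors inactive. In WT members it ran from 20.6 to 1370 CPM per cell with a median of 471, against a median of 173 and a highest value of 1719 in 0-UMI cells. In dKO-labelled members it ran from 23.8 to 1285 CPM with a median of 248, against a median of 167 and a highest value of 1119. The groups overlapped in both libraries, and 52.1% and 33.3% of the members lay above the 95th percentile of the 0-UMI cells. Over summed UMIs, *Hspa5* was 2.28-fold higher in WT members (450 against 197 CPM, log2 ratio 1.19, interval 1.11 to 1.26) and 1.54-fold higher in dKO-labelled members (300 against 195 CPM, 0.62, interval 0.52 to 0.71).

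*Sdf2l1* (chr16:17130138-17132383, − strand), a partner of BiP in the ER lumen, was the marker with the largest ratio in both libraries. Its level per WT member was 0 to 368 CPM with a median of 97.0, and 0 to 826 CPM with a median of 68.6 in dKO-labelled members. The 0-UMI cells had medians of 33.0 and 38.7 CPM, and their ranges (0 to 431 and 0 to 281 CPM) overlapped those of the members. Summed, *Sdf2l1* was 2.64-fold higher in WT members (log2 1.40, interval 1.25 to 1.55) and 1.84-fold higher in dKO-labelled members (0.88, interval 0.69 to 1.07).

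*Manf* (chr9:106838312-106891979, − strand) encodes a secreted factor held in the ER by BiP. Its median per cell was 749 CPM in WT members (91.4 to 1689) against 290 in 0-UMI cells, and 504 CPM (78.7 to 1807) against 303 in the dKO-labelled library. Every member of both libraries held *Manf*, as did 99.66% of the 0-UMI cells in WT and 99.73% in the dKO-labelled library. The ranges of members overlapped with those of the 0-UMI cells, which reached 1647 and 1595 CPM. The summed ratios were 2.12-fold (log2 1.08, interval 1.02 to 1.14) and 1.73-fold (0.79, interval 0.72 to 0.86).

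*Creld2* (chr15:88819646-88826683, + strand), an ER protein with disulfide isomerase activity, had a median of 115 CPM per WT member (0 to 477) against 60.0 in 0-UMI cells, and 98.7 CPM (0 to 459) against 61.5 in the dKO-labelled library. Its summed ratios of 1.98-fold (log2 0.98, interval 0.84 to 1.12) and 1.63-fold (0.71, interval 0.55 to 0.86) were the smallest of the 4 markers in WT and lay above that of *Hspa5* alone in the other library. All 4 markers had the larger ratio in WT. With 1 library each, genotype and library cannot be told apart in that difference.

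**Figure D1:**
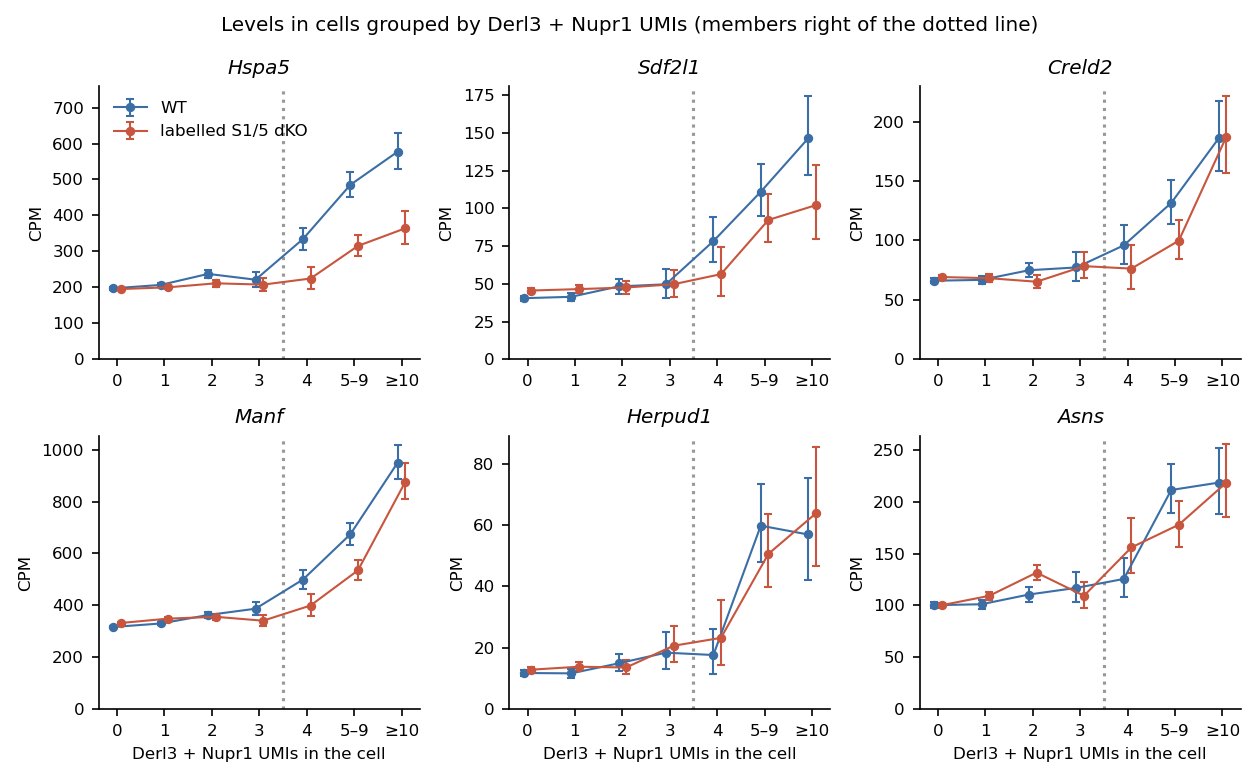
Summed level in CPM (linear axes from 0, bars are 95% Poisson intervals) of 4 markers, *Herpud1* and *Asns* in cells grouped by their *Derl3* and *Nupr1* UMIs, for WT and the dKO-labelled library. *Hspa5* at 3 UMIs (221 and 208 CPM) lies nearer to its level at 0 than to that at 5 to 9, and *Hspa5* reaches 578 CPM in WT and 364 CPM in the dKO-labelled library at 10 or more.

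Levels differed less below the threshold than above it. *Hspa5* stood at 197, 207, 237 and 221 CPM in WT cells with 0, 1, 2 and 3 summed UMIs, then at 334 CPM with 4, at 485 with 5 to 9 and at 578 with 10 or more. In the dKO-labelled library it stood at 195, 200, 211 and 208 CPM and then at 225, 315 and 364. The counting interval of the dKO-labelled cells with exactly 4 UMIs (195 to 257 CPM) overlapped that of the cells with 3 (190 to 226). In WT the interval at 4 UMIs (305 to 366) did not overlap that at 3 (202 to 242). These intervals are of summed UMIs and leave out the spread between cells. *Herpud1* was still at 17.6 and 23.2 CPM in the cells with 4 UMIs and reached 59.8 and 50.6 CPM at 5 to 9.

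As background for counts of genes, 8099 genes reached 5 CPM over all kept cells, with *Derl3* and *Nupr1* left out. Of these, 71 genes (0.877%) were at least 1.5-fold higher in members of both libraries and 67 (0.827%) at least 1.5-fold lower in both, while 7 passed 1.5-fold in opposite directions. Among the 4610 genes with at least 20 CPM, where counts are firmer, 31 (0.672%) were higher and 11 (0.239%) lower. The median log2 ratio of all genes was −0.05 in WT and −0.06 in the dKO-labelled library. Of the 8099 genes, 1935 lay above 0 in both libraries and 3532 below 0 in both, so counts by sign start from an uneven background.

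ER chaperones and folding enzymes were the first group higher in members, with 19 of 21 genes above 0 in both libraries (1935 of all 8099 genes were). *Hspa5*, *Sdf2l1*, *Creld2*, *Manf*, *Dnajc3* and *Txndc11* (6 of 21, against 0.877% of all genes) passed 1.5-fold in both libraries and none was lower. The median log2 ratio of the list was 0.63 in WT (interval 0.34 to 1.00) and 0.44 in the dKO-labelled library (0.21 to 0.62). The markers are 4 of the 6, so the count is not independent of how the group was described. *Dnajc3*, an ER co-chaperone that also inhibits PERK, was 2.14-fold and 1.59-fold higher (54.4 against 25.5 and 39.7 against 24.9 CPM).

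Several large chaperones passed 1.5-fold in WT only. The BiP nucleotide exchange factor *Hyou1* was 2.33-fold higher in WT members and 1.49-fold in dKO-labelled members, the disulfide isomerase *Pdia6* 2.00-fold and 1.48-fold, *Pdia4* 1.99-fold and 1.42-fold, and *Hsp90b1* (GRP94) 1.86-fold and 1.39-fold. Calreticulin, *Calr*, was 1.48-fold and 1.22-fold higher. The lectin chaperone *Canx* was lower in both, at 0.875-fold and 0.866-fold, and the oxidase *Ero1l* stood at 0.867-fold and 0.958-fold with intervals that held 1. The difference between the libraries was not tested.

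In ER-associated degradation, 3 of 14 genes passed 1.5-fold in both libraries, against 0.877% of all genes. The median log2 ratio of the list was 0.33 in WT (interval −0.0055 to 0.82, which held 0) and 0.24 in the dKO-labelled library (0.12 to 0.60). *Herpud1*, which assembles the ER membrane ubiquitin ligase complex, had the highest rank of all 8099 genes by the smaller of its 2 ratios. It was at 43.3 CPM in WT members against 11.8 in 0-UMI cells (3.68-fold, log2 1.88, interval 1.63 to 2.13) and at 45.6 against 12.9 CPM in the dKO-labelled library (3.55-fold, 1.83, interval 1.56 to 2.09). The mannosidase-like *Edem1* (1.77-fold and 1.51-fold) and the ubiquitin ligase *Syvn1* (1.85-fold and 1.66-fold) also passed, on 25 to 57 UMIs each. *Derl1* and *Derl2*, the paralogs of *Derl3*, did not, with ratios of 1.32-fold and 1.14-fold for *Derl1* and 0.996-fold and 0.895-fold for *Derl2*. The ATPase *Vcp* stood at 1.04-fold and 0.947-fold.

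The further steps of the secretory route differed little. Of 18 genes of ER entry and signal peptide cleavage and 19 of ER to Golgi transport, 0 passed 1.5-fold in both libraries. Their medians were 0.17 and 0.17 in WT and 0.10 and 0.05 in the dKO-labelled library. Of 8 UPR sensors and transcription factors at or above the minimum, *Xbp1* (1.85-fold and 1.54-fold) and *Atf4* (1.85-fold and 1.61-fold) passed, against 0.877% of all genes. *Atf6*, by contrast, was at 1.10-fold and 0.844-fold, and *Ern1* (IRE1) and *Eif2ak3* (PERK) lay under the minimum with 3 to 17 UMIs in members.

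Some regulators of the integrated stress response formed the second group. Of 16 listed genes, 8 reached the minimum, and *Ddit3*, *Atf5*, *Trib3* and *Cebpb* (4 of 8, against 0.877% of all genes) passed 1.5-fold in both libraries. Of the 8 genes, 5 lay above 0 in both libraries and 2 below 0 in both. The median log2 ratio of the list was 0.77 in WT (interval −0.35 to 1.72) and 0.67 in the dKO-labelled library (−0.25 to 1.57). Both intervals held 0, so the list as a whole is not shown to be higher. *Ddit3* stood at 17.2 CPM in WT members against 5.204 in 0-UMI cells (3.30-fold, log2 1.72, interval 1.31 to 2.11) and at 15.6 against 5.27 CPM in the dKO-labelled library (2.96-fold, 1.57, interval 1.10 to 2.01). Its counts were low, 65 and 48 UMIs, and the median WT member held none.

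*Atf5*, a factor translated like ATF4 under stress, was 2.79-fold and 1.95-fold higher, the pseudokinase *Trib3*, which binds ATF4, 2.25-fold and 1.74-fold, and *Cebpb* 1.77-fold and 2.10-fold. *Ppp1r15a* (GADD34), which recruits the phosphatase of eIF2α, was level at 0.992-fold and 0.987-fold. *Sesn2* and *Ddit4* also stayed within 1.5-fold. Below the minimum, *Chac1*, an enzyme that degrades glutathione, was 5.47-fold and 6.66-fold higher on 33 and 37 member UMIs. *Jdp2* was 7.44-fold and 3.75-fold higher on 34 and 17 UMIs, and *Gdf15* 2.30-fold and 2.71-fold on 30 and 26. The other listed genes below the minimum are not given here. Of the 16 listed genes, 1 had 0 UMIs in WT members and 2 had 0 UMIs in dKO-labelled members.

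Of the pathway lists, the amino acid list had the largest share of genes past 1.5-fold in both libraries, 9 of 16, against 0.877% of all genes. Of the 16 genes, 15 lay above 0 in both libraries, against 1935 of all 8099 genes. The median log2 ratio of the list was 0.86 in WT (interval 0.43 to 1.11) and 0.69 in the dKO-labelled library (0.33 to 0.92). The whole serine route was among the 9: *Phgdh* (2.33-fold and 1.56-fold), *Psat1* (1.99-fold and 1.90-fold) and *Psph* (2.22-fold and 1.58-fold), with *Shmt2* (1.65-fold and 1.86-fold) and *Mthfd2* (1.82-fold and 1.83-fold) of mitochondrial one-carbon metabolism. Asparagine synthetase, *Asns*, rested on 684 and 555 UMIs and was at 181 against 100 CPM in both libraries (1.803-fold, log2 0.85, intervals 0.73 to 0.96 and 0.72 to 0.98). The proline enzymes *Aldh18a1* (2.65-fold and 2.12-fold) and *Pycr1* (1.84-fold and 2.03-fold) and the arginine carrier *Slc7a1* (2.15-fold and 2.04-fold) completed them. The cystine carrier *Slc7a11*, which lay under the minimum of 5 CPM over all kept cells, had 0 UMIs in members of both libraries. Other carriers such as *Slc3a2* (1.30-fold and 1.24-fold) had smaller ratios.

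Cytosolic tRNA synthetases and the tRNA exporter *Xpot* were all above 0 in both libraries, 13 of 13 against 1935 of all 8099 genes, with medians of 0.47 and 0.36. *Cars* (1.89-fold and 1.65-fold) and *Sars* (1.82-fold and 1.71-fold) passed 1.5-fold (2 of 13, against 0.877% of all genes). *Nars*, *Aars* and *Iars* reached 1.68-fold, 1.58-fold and 1.51-fold in WT and 1.39-fold, 1.43-fold and 1.29-fold in the dKO-labelled library.

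**Figure D2:**
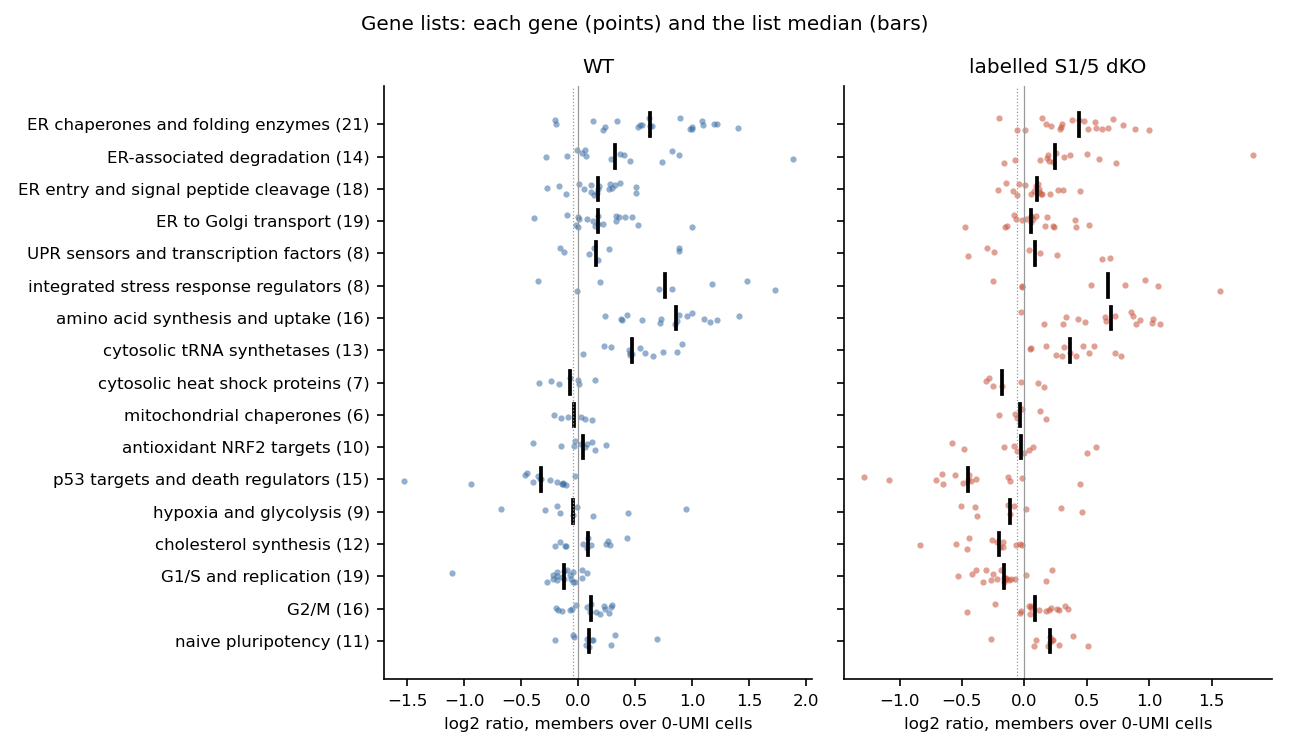
Log2 ratio of members over 0-UMI cells for each gene (points, jittered in height only) of 17 lists in WT (left) and the dKO-labelled library (right), with the number of genes at or above 5 CPM in brackets, list medians as black bars and the median of all genes as a dotted line. The amino acid, integrated stress response and ER chaperone lists lie farthest to the right in both libraries, and the p53 list lies to the left.

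Other stress lists showed no gene past 1.5-fold in both libraries: cytosolic heat shock proteins (medians −0.07 and −0.18 over 7 genes), mitochondrial chaperones (−0.03 and −0.04 over 6), NRF2 targets (0.05 and −0.03 over 10) and hypoxia and glycolysis (−0.05 and −0.12 over 9). The heat shock chaperones *Hspa8* (0.953-fold and 0.885-fold) and *Hsph1* (0.789-fold and 0.806-fold) were somewhat lower in members. The cholesterol synthesis list differed in sign, 0.09 in WT and −0.21 in the dKO-labelled library. Of 11 genes of autophagy and lysosome, progranulin, *Grn*, passed (2.00-fold and 1.65-fold), and the cathepsins *Ctsl* and *Ctsb* reached 1.53-fold and 1.52-fold in WT and 1.29-fold and 1.21-fold in the dKO-labelled library.

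Genes of the p53 and cell death list were mostly lower in members. Of the 15 genes, 14 lay below 0 in both libraries, against 3532 of all 8099 genes. The medians were −0.32 in WT (interval −0.45 to −0.13) and −0.45 in the dKO-labelled library (−0.66 to −0.13). *Perp*, a membrane protein of p53-dependent apoptosis, was the only one past 1.5-fold in both, at 23.3 against 44.5 CPM and 14.3 against 34.9 CPM (log2 −0.94 and −1.29). *Mdm2* stood at 0.733-fold and 0.711-fold, *Plk2* at 0.724-fold and 0.612-fold, and the apoptosis gene *Bbc3* (PUMA) at 0.762-fold and 0.733-fold. *Cdkn1a* (p21) was the exception, at 0.912-fold in WT and 1.36-fold in the dKO-labelled library.

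Replication-dependent histone genes, noted after their values were seen, were lower as well. All 16 genes with a *Hist* symbol above the minimum lay below 0 in both libraries, 7 of them past 1.5-fold in both, with medians of −0.75 and −0.88. Among all 8099 genes, 3532 lay below 0 in both. The linker histone *Hist1h1b* stood at 331 against 592 CPM in WT and 262 against 633 CPM in the dKO-labelled library (log2 −0.84 and −1.27). These genes have near-identical copies and mostly lack a poly(A) tail, so that single values are uncertain. The G1/S and replication list had medians of −0.12 and −0.16 with 0 of 19 genes past 1.5-fold, and the G2/M list 0.11 and 0.08 with 0 of 16.

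**Figure D3:**
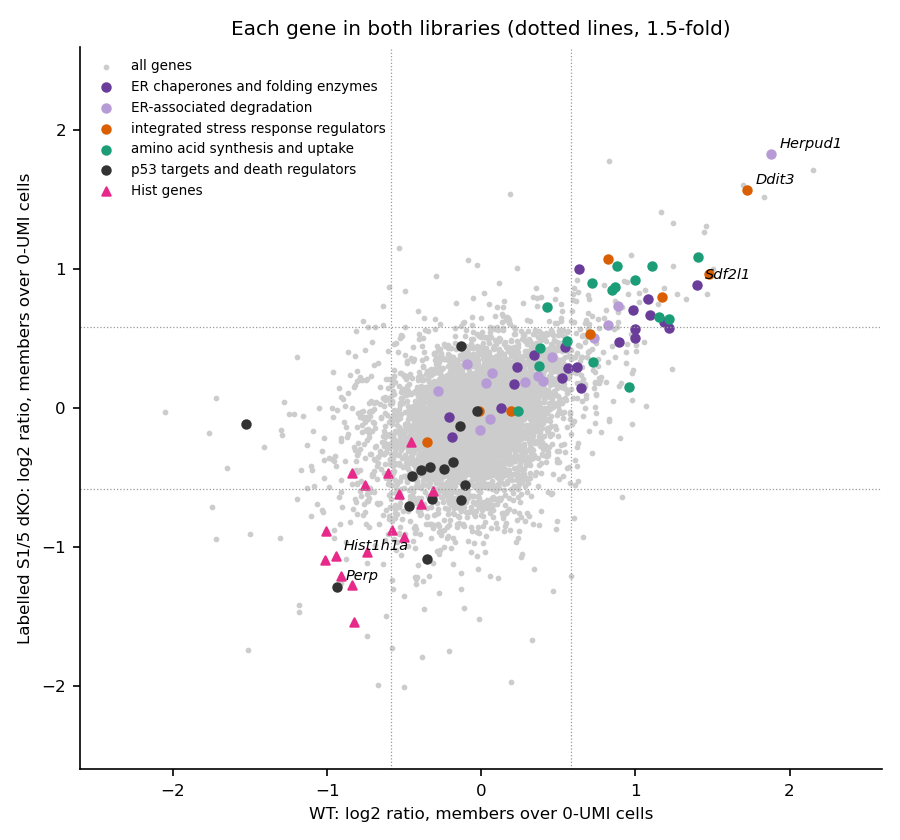
Log2 ratio of members over 0-UMI cells in WT (horizontal) and the dKO-labelled library (vertical) for the genes at or above 5 CPM, with 5 lists and the *Hist* genes coloured and 1.5-fold marked by dotted lines; 3 genes lie outside the axes. ER and stress response genes lie at the upper right, with *Herpud1* and *Ddit3* farthest out of the coloured genes, and *Hist* genes and *Perp* at the lower left.

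The 10 genes with the highest ratios by rank were *Herpud1*, *Serpinb6c*, *Ly6a*, *Ddit3*, *Pck2*, *Hexa*, *Xaf1*, *Pgc*, *AC191865.2* and *Aldh18a1*. *Serpinb6c*, a serine protease inhibitor gene, was 4.45-fold and 3.28-fold higher on 69 and 48 UMIs, and *Pck2*, the mitochondrial form of PEPCK, 3.56-fold and 2.87-fold. The lysosomal enzyme *Hexa* was 2.74-fold and 2.48-fold higher on 160 and 123 UMIs. For *Ly6a*, 1 cell gave 47.1% of the UMIs in dKO-labelled members, so its ratio there rests on that cell.

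The 10 lowest were *Tagln*, *Rhox5*, *Lpar6*, *Ptpn14*, *Lrrfip1*, *Hist1h3e*, *Hist1h1a*, *Anxa3*, *Ctgf* and *Cyr61*. The actin-binding gene *Tagln* was at 3.44 against 22.5 CPM in WT members and at 0.976 against 12.8 in dKO-labelled members, on 13 and 3 UMIs. The homeobox gene *Rhox5* was at 3.70 against 14.4 and 1.63 against 17.8 CPM on 14 and 5 UMIs. *Ctgf* and *Cyr61*, targets of YAP signalling, were at 0.515-fold and 0.405-fold in WT and at 0.522-fold and 0.522-fold in the dKO-labelled library.

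Each gene of the rule was also read in cells chosen by the other gene. The pair was chosen with earlier results of these data known, and cells with at least 4 UMIs of either gene are all members. The values describe the pair and are no independent support for it. Cells with at least 4 *Derl3* UMIs (13 in WT and 10 in the dKO-labelled library) held *Nupr1* at 115 CPM against 6.90 CPM in cells without *Derl3*, and at 111 against 9.17 CPM, or 16.7-fold and 12.1-fold. *Nupr1* was seen in 10 of those 13 cells and in 10 of those 10. Cells with at least 4 *Nupr1* UMIs (52 and 45) held *Derl3* at 32.3 against 4.71 CPM and 21.9 against 4.89 CPM, or 6.86-fold and 4.47-fold.

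The members were not alike. They were divided here by UMIs of *Derl3*, a gene of the rule, so the values describe the division and are no independent support for it. Members with UMIs of both genes (46 and 35) had high ER chaperones, whereas those with *Nupr1* UMIs and no *Derl3* UMI (24 and 25) had ER chaperones closer to the 0-UMI level. *Hspa5* stood at 524 CPM in the WT members with both genes and 303 in those with *Nupr1* only, against 197 in 0-UMI cells. In the dKO-labelled library it stood at 375 CPM with both genes and 179 (interval 156 to 205) with *Nupr1* only, against 195. *Manf* was at 791 and 408 CPM in the WT members and at 705 and 361 in dKO-labelled members. Summed over the ER chaperone list, the log2 ratio over 0-UMI cells was 0.89 with both genes and 0.21 with *Nupr1* only in WT, and 0.64 and −0.02 in the dKO-labelled library.

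Summed over cells, the integrated stress response and amino acid lists were higher than in 0-UMI cells in both kinds of member. The log2 ratio of the stress response list was 0.93 with both genes and 0.62 with *Nupr1* only in WT, and 0.65 and 0.75 in the dKO-labelled library. Summed over the amino acid list, the log2 ratio was 0.82 with both genes and 0.48 with *Nupr1* only in WT, and 0.57 and 0.65 in the dKO-labelled library. *Herpud1*, of the ER-associated degradation list, was at 47.2 and 34.4 CPM in the WT members and at 51.7 and 35.7 in dKO-labelled members, against 11.8 and 12.9 in 0-UMI cells. *Psat1* had log2 ratios of 1.09 with both genes and 0.75 with *Nupr1* only in WT and 0.75 and 1.17 in the dKO-labelled library. *Trib3* had 1.22 and 1.08 in WT and 0.50 and 1.19 in the dKO-labelled library.

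**Figure D4:**
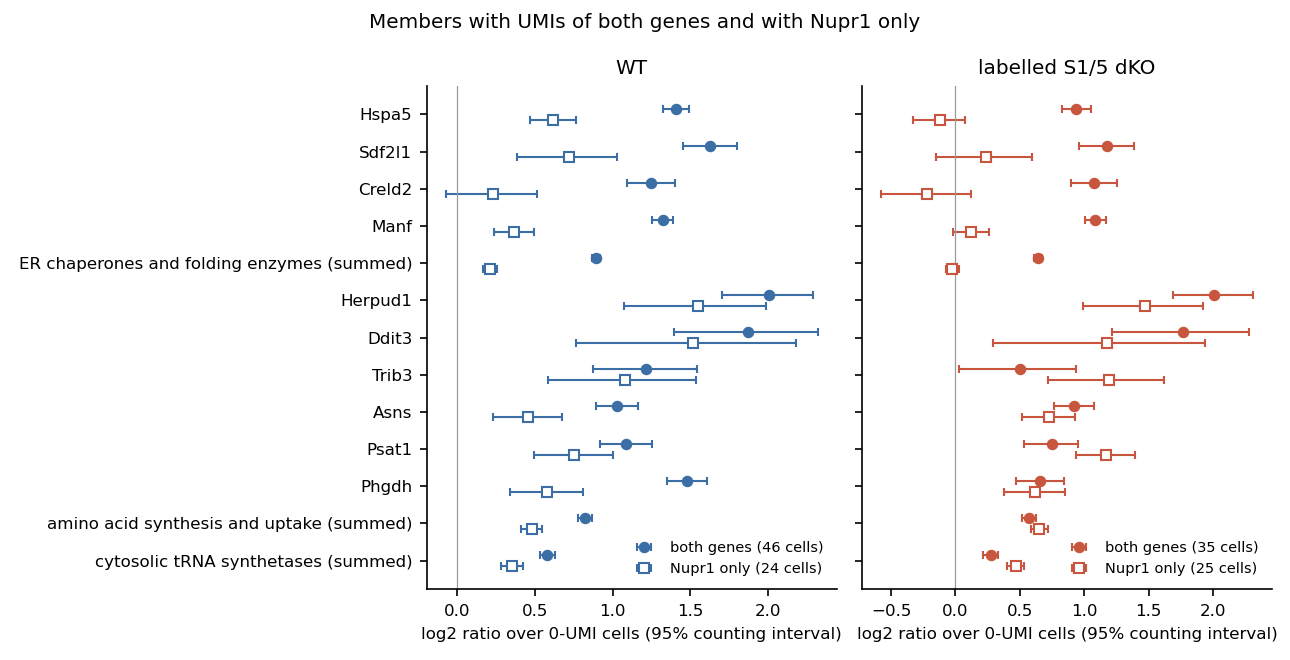
Log2 ratio over 0-UMI cells (bars are 95% counting intervals) of single genes and summed lists in members with both genes (filled) and with *Nupr1* only (open), for WT (left, 46 and 24 cells) and the dKO-labelled library (right, 35 and 25 cells). The 4 ER markers lie apart in the 2 kinds of member, while *Herpud1*, *Ddit3* and the amino acid genes lie above 0 in both.

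The 2 kinds of member had similar depth, with medians of 43945 and 47987 UMIs in WT and 41964 and 47087 in the dKO-labelled library, but members with both genes held more of the summed UMIs (medians 6 and 4 in WT, 6 and 5 in the other). Among members with 4 to 6 summed UMIs, the ER list was at 0.66 (25 cells) and 0.12 (21 cells) in WT and at 0.52 (19 cells) and 0.04 (18 cells) in the dKO-labelled library. The amino acid list was at 0.62 and 0.41 in WT and at 0.39 and 0.64 in the other. The division by *Derl3* was made after values were seen, and a cell counted as *Nupr1* only may hold *Derl3* mRNA that was not captured.

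A lower threshold of 3 UMIs of 1 gene and 0 of the other gave a like picture on the *Nupr1* side. Cells with at least 3 *Nupr1* UMIs and no *Derl3* (42 in WT and 44 in the dKO-labelled library) had log2 ratios of 0.14 and −0.05 for the ER list, 0.42 and 0.50 for the amino acid list and 0.60 and 0.51 for the stress response regulators. On the *Derl3* side, 9 and 6 cells had 0.44 and 0.19 for the ER list and 0.38 and 0.11 for the amino acid list, values that rest on few cells.

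Seen cell by cell at an equal depth of 10000 UMIs, a part of the members lay above most 0-UMI cells and a part lay among them. The ranges of members and 0-UMI cells overlapped on both lists. The ER list gave a median of 53 UMIs in WT members (12 to 115) against 28 in 0-UMI cells (0 to 91), and 34.5 (10 to 117) against 28 (3 to 63) in the dKO-labelled library. The amino acid list gave 16 (5 to 33) against 9 (1 to 26) in WT, and 14.5 (5 to 32) against 9 (0 to 24) in the other. Above the 95th percentile of the 0-UMI cells on both lists were 41.1% of WT members and 25% of dKO-labelled members, against 0.203% and 0.108% of 0-UMI cells. On neither list above it were 34.2% and 40% of the members.

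Of the members with both genes, 34 of 46 in WT and 20 of 35 in the dKO-labelled library exceeded that percentile on the ER list, against 5 of 24 and 4 of 25 with *Nupr1* only. On the amino acid list the counts were 28 of 46 and 13 of 35 with both genes and 6 of 24 and 14 of 25 with *Nupr1* only. The 3 WT members with *Derl3* only all exceeded it on the ER list. Across cells, the sums of the 2 lists had a Pearson r of 0.52 in 73 WT members and 0.37 in 60 dKO-labelled members, and 0.05 and −0.01 in the 1477 and 1844 0-UMI cells. Cells of 1 library share its handling, so these are descriptions.

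**Figure D5:**
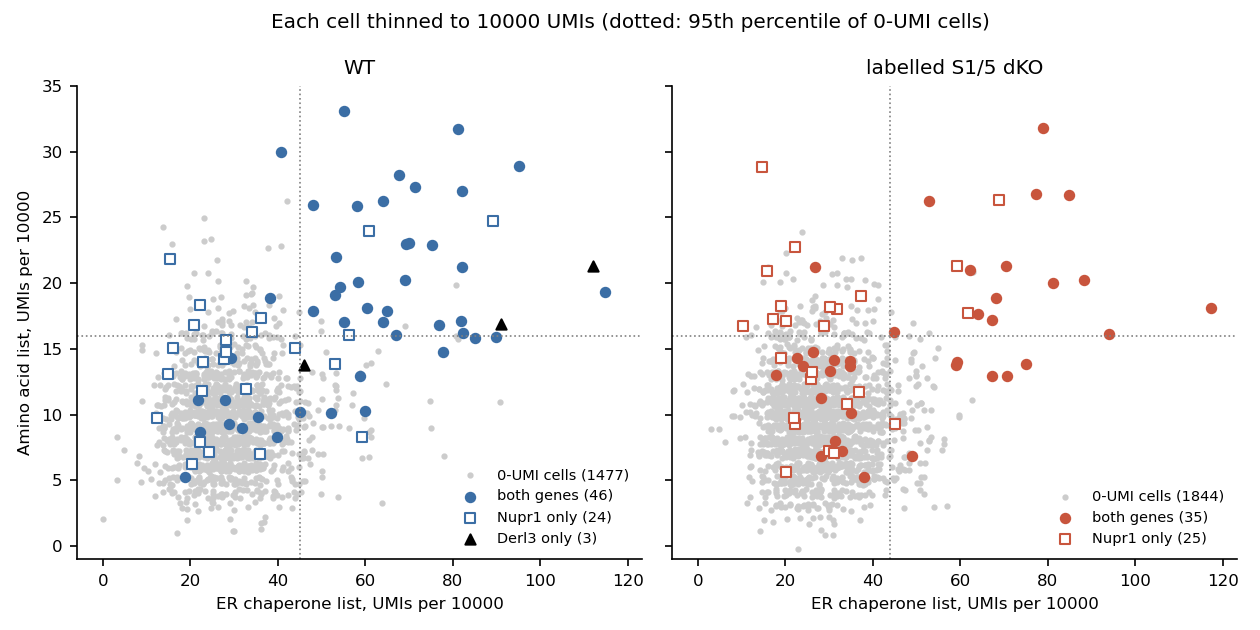
UMIs of the ER chaperone list (horizontal) and the amino acid list (vertical) per cell after thinning to 10000 UMIs, with a small jitter, for 0-UMI cells (grey) and the kinds of member, in WT (left) and the dKO-labelled library (right); dotted lines are the 95th percentiles of the 0-UMI cells. Most members at the upper right, where 0.203% and 0.108% of the 0-UMI cells lie, hold both genes, and most members with *Nupr1* only lie left of the vertical line.

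In the sums of both libraries, all 4 markers outside the rule were at least 1.54-fold higher in members. These markers were chosen with earlier results of these data known, so they describe the label of ER stress cells and do not test it. The label did not describe every member. Members kept the pluripotency markers. Of 11 naive genes at or above the minimum, 0 passed 1.5-fold in both libraries, and their summed level was 3631 CPM in WT members against 3387 in 0-UMI cells and 3813 against 3393 in the dKO-labelled library. *Pou5f1* was at 1273 against 1311 CPM and 1343 against 1276 CPM. Of these 11, *Klf2* had the largest ratio, 1.61-fold and 1.42-fold, and *Sox2* was lower at 0.867-fold and 0.830-fold. The formative and primed list had medians of −0.16 and −0.28 over 5 genes, and the BMP target list −0.07 and −0.30 over 4.

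Most markers of other cell types were few. Mesoderm, trophoblast and fibroblast lists summed to 0.976 to 3.70 CPM in members. The 2C-like list held 0 UMIs in WT members and 1 in dKO-labelled members, against 144 and 640 UMIs in 0-UMI cells (2.42 and 9.64 CPM). Of those, 116 UMIs lay in 2 WT cells and 624 in 4 dKO-labelled cells, and the other 0-UMI cells held 28 and 16 UMIs in all, so the members are not shown to hold fewer. The neural-like list, of which *Nes* and *Tubb3* are also expressed outside neurons, was higher in members of both libraries, at 208 and 214 CPM against 152 and 162 (log2 0.45, interval 0.34 to 0.56, and 0.40, interval 0.28 to 0.51), of which *Tubb3* gave 192 and 204 against 135 and 148.

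The primitive endoderm list rested on a single cell. It summed to 13 UMIs in WT members (3.44 CPM, against 4.78 in 0-UMI cells) and to 72 UMIs in dKO-labelled members (23.4 against 3.31 CPM), of which 64 lay in 1 cell. That member held 18 UMIs of *Gata6*, 13 of *Sox17*, 0 of *Sox2* and 0 of *Nanog*, with 3 of *Derl3* and 2 of *Nupr1*. Without it the list stood at 8 UMIs (2.66 CPM), 72 genes were higher and 72 lower in both libraries, and the medians of the dKO-labelled library were 0.45 for the ER list and 0.71 for the amino acid list.

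Part of the basement membrane counts lay in that cell. *Col4a1* was 2.92-fold higher in dKO-labelled members and 1.40-fold without the cell, and *Lamb1* 2.09-fold and 0.943-fold, against 1.14-fold and 0.942-fold in WT. *Lama1* (1.96-fold in WT and 2.14-fold in the dKO-labelled library) and the collagen chaperone *Serpinh1* (1.78-fold and 3.44-fold) passed 1.5-fold in both libraries, and remained at 1.75-fold and 2.62-fold in the dKO-labelled library without it.

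Members made up 3.33% of WT cells (interval 2.62% to 4.17%) and 2.11% of dKO-labelled cells (1.61% to 2.71%). These intervals overlapped, and the WT cells were also deeper. With each cell thinned to 10000 UMIs and at least 2 summed UMIs required, the shares were 2.10% (46 cells) and 1.86% (53 cells). With 4 or more required after thinning, they were 0.319% (7 cells) in WT and 0.528% (15 cells) in the dKO-labelled library. The order of the libraries differed between these cutoffs at equal depth. The higher cutoff rests on 7 and 15 cells of a single random draw, so neither order is settled. Cells with at least 4 *Derl3* UMIs made up 0.593% and 0.352%, and cells with at least 4 *Nupr1* UMIs 2.37% and 1.58%. The difference between the genotypes cannot be told apart from that between 2 libraries.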

How the data were processed

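The authors aligned reads of 2 Chromium 3′ v3 libraries to mm10 with Cell Ranger 3.0.2 and deposited raw UMI counts of 31053 genes for all barcodes, without normalization (100446187 UMIs in WT and 113937221 in the dKO-labelled library). From these counts, cells and members were taken by the rule in the report. No doublet caller was run. UMIs were summed over the cells of a group and divided by the group's total to give CPM. Poisson, binomial (Clopper-Pearson) and order-statistic 95% intervals cover counting error only. Genes with 0 UMIs in a group of either library (2 of 8099, both in WT members) were not counted in a direction, and symbols listed for more than 1 gene were left out. Thinning drew UMIs at random without replacement (seed 1). Gene positions follow the GENCODE annotation (GRCm38).

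The members, the markers and the gene lists were chosen with earlier results of these data known. Genes named singly are the 6 markers, the list members, the 10 highest and 10 lowest genes ranked by the smaller absolute log2 ratio of the 2 libraries, and *Smad1* and *Smad5*. The *Hist* genes, the division of members by *Derl3* and the removal of single members were added after seeing the data. Alternatives were other thresholds on UMIs, genes and mitochondrial share, depth weighting, thinning, removal of cells of high UMIs, per-cell means, edgeR TMM scaling, other comparison cells, and other minimums and folds. Python 3.11.15, numpy 2.4.6, scipy 1.17.1, pandas 2.3.3, matplotlib 3.10.9 and edgeR 4.0.16 were used, and the ratios were tested on simulated data.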

Additional observations from a re-analysis of the deposited data

Results flagged for a closer look

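A few list medians had opposite signs in the 2 libraries, and the difference was not tested because each genotype has 1 library. The cholesterol synthesis list had a median log2 ratio of members over 0-UMI cells of 0.085 in WT and −0.21 in the dKO-labelled library. The neural-like list had 0.22 and −0.27 over 3 genes, while its summed level was higher in members of both libraries (log2 0.45 and 0.40), and the NRF2 target list 0.046 and −0.028 over 10.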

How the results depend on the processing

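No paired analysis was possible because each genotype has 1 library and no test was run. Of 660 repeated list medians, 582 stayed within the interval of the reported value. Another 75 did not, 30 of them for BMP targets, a list too short for an interval, and 3 turned sign from a value whose interval did not hold 0. Of 180 repeated ratios of 6 genes, 100 stayed, 78 moved and 2 turned. The sign also differed for 21 medians whose reported interval held 0 or was not given, so that the direction of those lists is not settled. Outside their intervals among these were ER to Golgi transport (−0.15) and autophagy (−0.092), both for dKO-labelled members with *Nupr1* only. The 3 medians and 2 ratios were these. In members with *Nupr1* only, the dKO-labelled library had *Hspa5* at −0.12, *Creld2* at −0.22 and the ER chaperone median at −0.036, and WT had the ER entry median at −0.057. Without cells of over 2 times the median UMIs, the cholesterol median of the dKO-labelled library was 0.0090. The cause was not tested.

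The ER chaperone median moved to 0.19 in WT with *Nupr1* only, to 0.70 in the dKO-labelled library with both genes, to 1.14 in WT and 0.90 in the other with at least 4 *Derl3* UMIs, and to 0.69 in the dKO-labelled library with at least 6 UMIs. The amino acid median moved to 1.11 and 0.93 with at least 4 *Derl3* UMIs and to 0.93 in the dKO-labelled library with per-cell means. With 0-UMI cells weighted to the members' depths the ER medians were 0.66 and 0.53, and 64 of the 71 higher and 56 of the 67 lower genes were called again. After thinning 56 and 30 of them were called again, and without cells of over 2 times the median UMIs 68 and 44, a smaller share of the lower than of the higher genes.

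Counts of genes higher and lower in both libraries were 34 and 187 for *Nupr1* only, 113 and 123 for both genes, 30 and 30 for a threshold of 3 UMIs, 118 and 205 for one of 6, 292 and 399 with at least 4 *Derl3* UMIs, 150 and 246 after thinning, 109 and 102 with per-cell means, 190 and 254 from 1 CPM, 31 and 11 from 20 CPM, 540 and 357 without a minimum, and 13 and 6 at 2-fold. Lower genes were 102 with at least 4 *Nupr1* UMIs. The cause of these differences was not tested. Member shares in WT and the dKO-labelled library were 5.11% and 4.01% at a threshold of 3 UMIs, 1.64% and 1.09% at one of 6, 0.593% and 0.352% with at least 4 *Derl3* UMIs, 2.37% and 1.58% with at least 4 *Nupr1* UMIs, and 2.10% in WT after thinning.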
